A study of Bombyx mori with 3 samples.

Results

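The ecdysone pathway and the nuclear receptors were followed on 3 two-colour arrays of silkworm fat body RNA. Probes were taken by their deposited descriptions or gene symbols, with wordings for ecdysone and ecdysteroids, the ecdysone receptor, ultraspiracle, nuclear receptors, E74, E75, E78, Broad-complex, FTZ-F1, HR3, HNF4 and Kruppel homologs. P450 descriptions were left out. The rule found 68 of 23229 gene probes. Only 20 of the 68 are described as nuclear receptors. The other 48 are described as other transcription factors, receptor coregulators, enzymes that make or inactivate ecdysteroids, ecdysteroid-regulated proteins, and the ecdysis-triggering hormone and its receptors. The rule reads descriptions and symbols, not intensities. The wordings for HNF4, E78 and Kruppel homologs matched 0 probes, so those factors were not analysed here.

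The tested RNA came from Bombyx mori larvae of strain p50, both sexes mixed, on day 3 of the fifth and last instar. Their mulberry leaves, given 3 times a day, had been dipped in a phoxim solution of 4 µg/mL, and tissue was taken after 24 h. Control larvae had the same strain, stage and schedule, with leaves dipped in water. The labels state 3 biological replicates and 30 larvae per experiment, and each array carried phoxim and control RNA of the same replicate number. Phoxim is an organophosphate insecticide, a class that blocks acetylcholinesterase, and the comparison asks which transcripts of the fat body differ after feeding on it.

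20-Hydroxyecdysone, the active moulting steroid of insects, acts through a pair of nuclear receptors, the ecdysone receptor EcR and its partner ultraspiracle (USP). The hormone-bound pair switches on early genes such as E75, E74 and Broad, and these in turn control later factors, among them HR3 and FTZ-F1. The fat body, which stores nutrients and secretes most hemolymph proteins, both responds to the hormone and converts ecdysone to it through the hydroxylase Cyp314a1. Ecdysteroid titres are low while last-instar larvae feed and rise before they spin.

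According to the labels phoxim RNA always carried Cy5, but the header of the replicate 2 file names it as Cy3, and that header was followed. Across the 6154 probes tested, the log2 ratios correlated at r = 0.35 between replicates 1 and 3, at 0.27 between 2 and 3 and at 0.03 between 1 and 2. These correlations run across probes, which are not independent replicates. Replicates 1 and 3 share a dye order, so agreement between them and a dye effect cannot be told apart. Of 72 probes for fat body markers (storage proteins, 30K proteins, lipophorins, vitellogenin and transferrin), 36 exceeded background in all 3 phoxim samples and 32 in all 3 control samples. Muscle markers had a median log2 ratio of 1.03 over 31 tested probes, with 2.13, 0.17 and 0.52 on replicates 1, 2 and 3. Hemocyte markers stood at 1.09, -0.19 and 0.16 (13 tested probes) and fat body markers at 0.71, -0.21 and 0.22 (39 tested probes), also highest on replicate 1. Markers of epidermis and trachea, silk gland and gonad were highest there too. Midgut markers (0.02, -0.04 and 0.61, 15 tested probes) were highest on replicate 3. The list for the prothoracic gland (0.08, 0.24 and 0.29) had 2 tested probes, sw08783 and sw01027. Both resemble the fly protein torso-like and entered by the wording torso, so they are not read as markers of that gland. All 61 muscle probes together summed to intensities from 122468 to 189862 in phoxim RNA and from 38598 to 95757 in control RNA, and 12 of them exceeded background on no array.

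Most of the pathway, like most gene probes on these arrays, was too dim to compare. A probe counted as above background when its intensity exceeded the 95th percentile of the negative control spots of the same dye and array. For replicates 1, 2 and 3 the Cy5 limit stood at 46.9, 101.0 and 31.8. The Cy3 limit stood at 188.3, 307.1 and 175.7, so Cy3 signals had to be brighter to count. A probe was tested when phoxim or control RNA exceeded it on each of the 3 arrays. Of the 68 probes, 13 were tested (19.1%, against 26.5% of all gene probes), 13 were above background on 2 arrays, 6 on 1 array and 36 on none. The 36 are 52.9% of the 68, near the 51% of all gene probes that were above background on no array. The probes above background on 2 arrays all missed it on replicate 2, where the limits of both dyes were highest. A tested probe may owe its place to the RNA in which it is brighter, so counts over the 13 describe only these probes. None of the 68 reached 99% of the highest deposited intensity of the same dye and array.

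**Figure D1:**
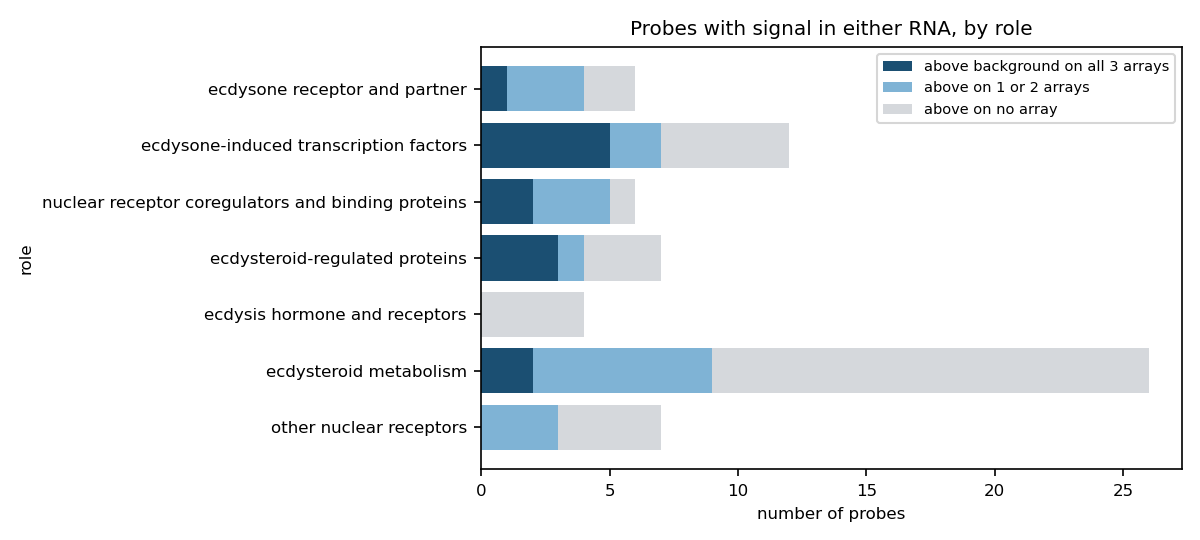
Number of probes (x axis) in each role (y axis), split by the number of arrays on which phoxim or control RNA was above background. All 4 probes for ecdysis hormone and receptors were above background on no array, while 5 of 12 probes for ecdysone-induced transcription factors were above it on all 3 arrays.

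No probe of the pathway differed between phoxim and control by the test applied. With limma and Benjamini-Hochberg adjustment over the 6154 probes, 0 of the 13 had an adjusted p under 0.05, and the share over all tested probes was 0%. The lowest adjusted p among the 13 was 0.35. At an unadjusted p under 0.05 there was 1 of the 13, the EcR probe, where 10.9% of all tested probes reached that level, 6.13% with a higher and 4.81% with a lower ratio. The mean log2 ratio (phoxim over control, as everywhere below) was above 0 for 8 probes and below 0 for 5, and it was above 0 for 50.3% of all tested probes. The median of the 13 means was 0.10, and that of all tested probes was 0.00. Ratios of these probes varied between arrays with a median SD of 0.67, above the 0.49 of all tested probes. Their 95% intervals reached from 0.70 to 1.18 log2 units to either side of the mean, and for 9 of the 13 the interval still held a 2-fold difference in some direction.

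EcR itself was brighter in phoxim RNA on every array, but its control RNA was mostly below background. The probe sw18055 for the ecdysone receptor (Ecr, gene ID 692756) had intensities of 705, 323 and 612 in phoxim RNA, against 50, 137 and 67 in control RNA of replicates 1, 2 and 3. Every phoxim sample was brighter than every control sample. Phoxim RNA exceeded background on 3 arrays and control RNA on 1 array, replicate 2, where it carried Cy5 with its lower limit. After normalization the log2 ratios were 2.60, 0.30 and 2.59, with a mean of 1.83 ± 1.33 (SD, n = 3). On replicates 1 and 3 these ratios are set against control signals of 50 and 67, below the Cy3 limits, and the probe passed the filter there through phoxim RNA alone. The size of the ratio is therefore not exact. The limma 95% interval of that mean ran from 0.65 to 3.01, and the adjusted p was 0.35. The same signs stood in the authors' deposited ratios, whose log2 values for this probe were 2.85, 0.89 and 2.69. Without replicate 2 the mean was 2.60, and with a dye term in the fit it was 1.45 (adjusted p = 0.79). EcR was thus highest relative to control on the arrays with phoxim in Cy5, with nearly the same ratio on both. The muscle, hemocyte and fat body markers were highest on replicate 1, the midgut markers on replicate 3. The part of dye or of tissue in the EcR ratio was not tested. In RNA of a dissected organ, a different share of cells of a type and a different amount of RNA per cell cannot be told apart.

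The other 3 probes for EcR gave no second measurement of it. The probe sw17770 has the same gene ID but the gene model Bmb008416, where the tested probe sw18055 has Bmb029038. It had intensities of 8, 63 and 9 in phoxim RNA and 47, 0 and 34 in control RNA, and none exceeded background. A probe with the receptor's name and yet another gene model (sw11842, Bmb008418) stayed between 14 and 75 in both RNAs, also below background on every array. The probe for the region specific to isoform A (sw11434) had 62, 100 and 30 in phoxim RNA and 33, 8 and 19 in control RNA. It exceeded background in phoxim RNA of replicate 1 alone and was not tested.

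USP, the partner that EcR needs to bind DNA, was read by a pair of probes that both failed the filter on replicate 2. The probe sw20390 (listed under Cf1 and Usp-2, which the RefSeq table holds as synonyms of USP) had 506, 79 and 136 in phoxim RNA, against 140, 10 and 492 in control RNA. Its log2 ratios were 1.43, -0.22 and -1.29, so replicates 1 and 3 pointed opposite ways and the groups overlapped. The probe sw10521 had 69, 129 and 62 in phoxim RNA, against 40, 23 and 159 in control RNA, with ratios of 0.76, 0.12 and -0.36. On both probes the ratio was above 0 on replicate 1 and below 0 on replicate 3, unlike the tested EcR probe.

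**Figure D2:**
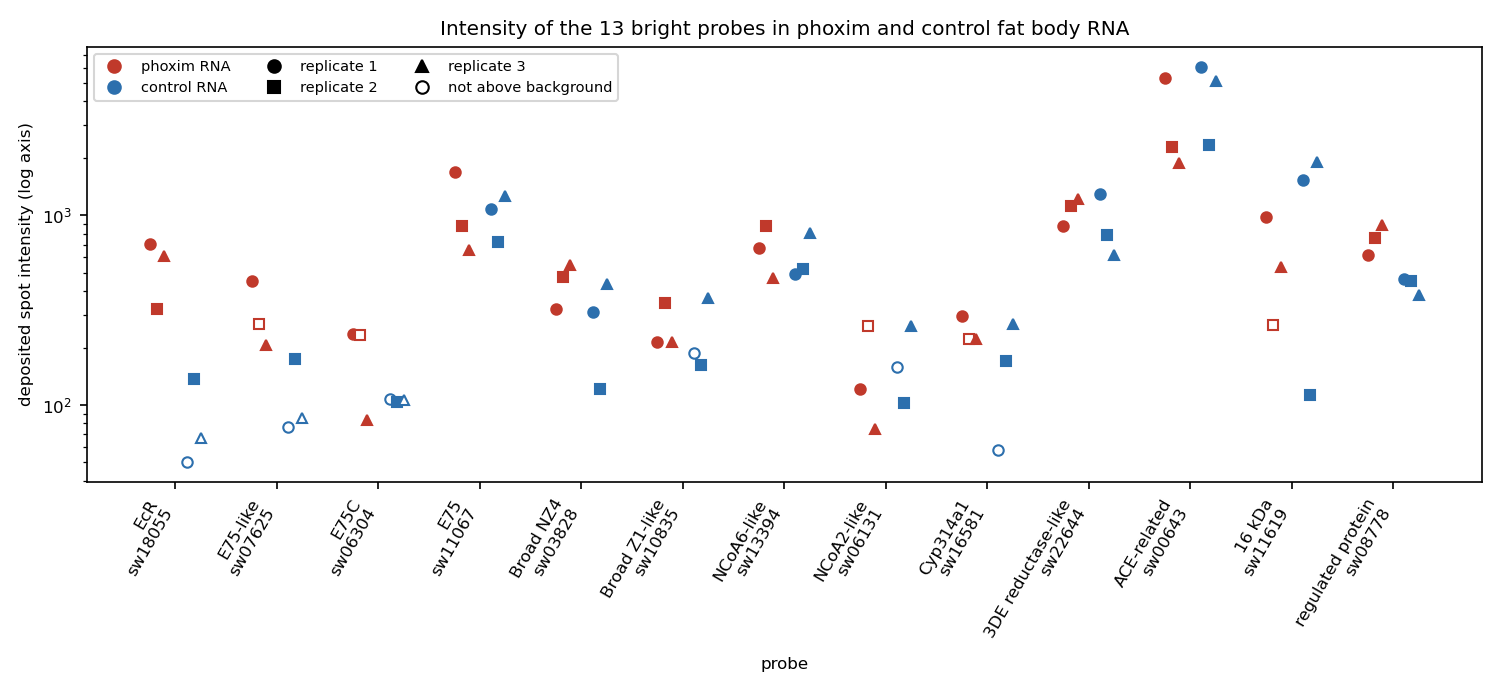
Deposited spot intensity (log axis) of each of the 13 tested probes (x axis) in phoxim RNA (red, left) and control RNA (blue, right), with a marker shape for each replicate and open symbols for spots not above background. EcR (sw18055), the E75-like probe (sw07625) and an ecdysteroid-regulated protein (sw08778) have 3 phoxim values above all 3 control values.

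Across the tested probes, phoxim intensities lay above all control intensities for 14.0% and below all of them for 1.61%. Intensities are not balanced between dyes, and these unequal shares are the background for the 3 such probes among the 13. No probe of the 13 had all phoxim intensities below all control intensities.

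E75, a nuclear receptor that ecdysone induces early and that binds heme in Drosophila, was read by 3 tested probes, and they did not give 1 direction. The probe described after the land crab E75 (sw07625, gene model Bmb003312) had 453, 267 and 207 in phoxim RNA, against 77, 175 and 85 in control RNA. Its log2 ratios were 1.81, -0.17 and 1.25, with a mean of 0.96 ± 1.02 (SD, n = 3, adjusted p = 0.46 by limma). Control RNA exceeded background on replicate 2 alone, so the size of this ratio is not exact either. As for EcR, the ratio was high on the arrays with phoxim in Cy5 and near 0 on replicate 2. There the phoxim value of 267 lay below the Cy3 limit of 307.1, so no array had both RNAs above background.

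The probe for isoform E75C (sw06304) had 237, 234 and 83 in phoxim RNA, against 108, 104 and 106 in control RNA. The groups overlapped through the phoxim sample of replicate 3. Its mean log2 ratio was 0.43 ± 0.40, with 0.87, 0.12 and 0.28 on the 3 arrays (adjusted p = 0.62). On replicate 3 the phoxim intensity was the lower one, so the ratio there is above 0 only after normalization. Again control RNA exceeded background only where it carried Cy5, which leaves the size of the ratio inexact. On that array, replicate 2, the phoxim value of 234 lay below the Cy3 limit.

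The brightest of the E75 probes carries the E75 gene ID (sw11067, 692595) and was above background in all 6 samples. It had 1695, 877 and 657 in phoxim RNA, against 1076, 726 and 1259 in control RNA. Here the ratios were 0.65, -0.30 and -0.97, with a mean of -0.21 ± 0.82 (adjusted p = 0.88). The mean turned above 0 with median centring (0.09) and without replicate 3 (0.18). On replicate 3 the E75 probes thus stood at 1.25, 0.28 and -0.97. Whether the 3 probes differ from each other was not tested.

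Broad, the zinc finger factor that specifies the pupal stage, was represented by 4 probes, of which 2 were tested. The probe for the Broad NZ4 isoforms (sw03828) had 323, 474 and 545 in phoxim RNA, against 310, 121 and 435 in control RNA, and it exceeded background in all 6 samples. Its log2 ratios of 0.08, 0.90 and 0.33 were above 0 on all 3 arrays, with a mean of 0.44 ± 0.42 (SD, n = 3, adjusted p = 0.61 by limma). With replicate 2 in the labelled dye order the mean was -0.16, so its sign rests on the header. The probe resembling isoform Z1 of the honey bee (sw10835) had 216, 344 and 214 in phoxim RNA, against 188, 162 and 366 in control RNA. Its mean was 0.00 ± 0.39, with an interval from -0.70 to 0.70. The other Broad probes did not exceed 96 in any sample.

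The remaining factors of the cascade were dim. E74 (sw00164), an ETS-domain factor induced early by the hormone, had 138, 148 and 54 in phoxim RNA, against 150, 65 and 213 in control RNA, and it missed the limit on replicate 2. HR3 (sw05064), a nuclear receptor of the later response, did not exceed 70 and was below background in all 6 samples. FTZ-F1, the receptor that follows when the hormone declines, had 3 probes, all below background on every array, with 91 as the highest intensity.

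Other nuclear receptors were not measurable at this brightness. None of the 7 probes was tested, 4 were above background on no array, and the highest intensity in any sample was 166. They include a pair of probes for the orphan receptor Grf (sw01603 and sw20600). The probes sw18114 and sw07046 resemble the worm receptors NHR-8 and FAX-1, and sw20277 resembles the human photoreceptor-specific nuclear receptor.

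**Figure D3:**
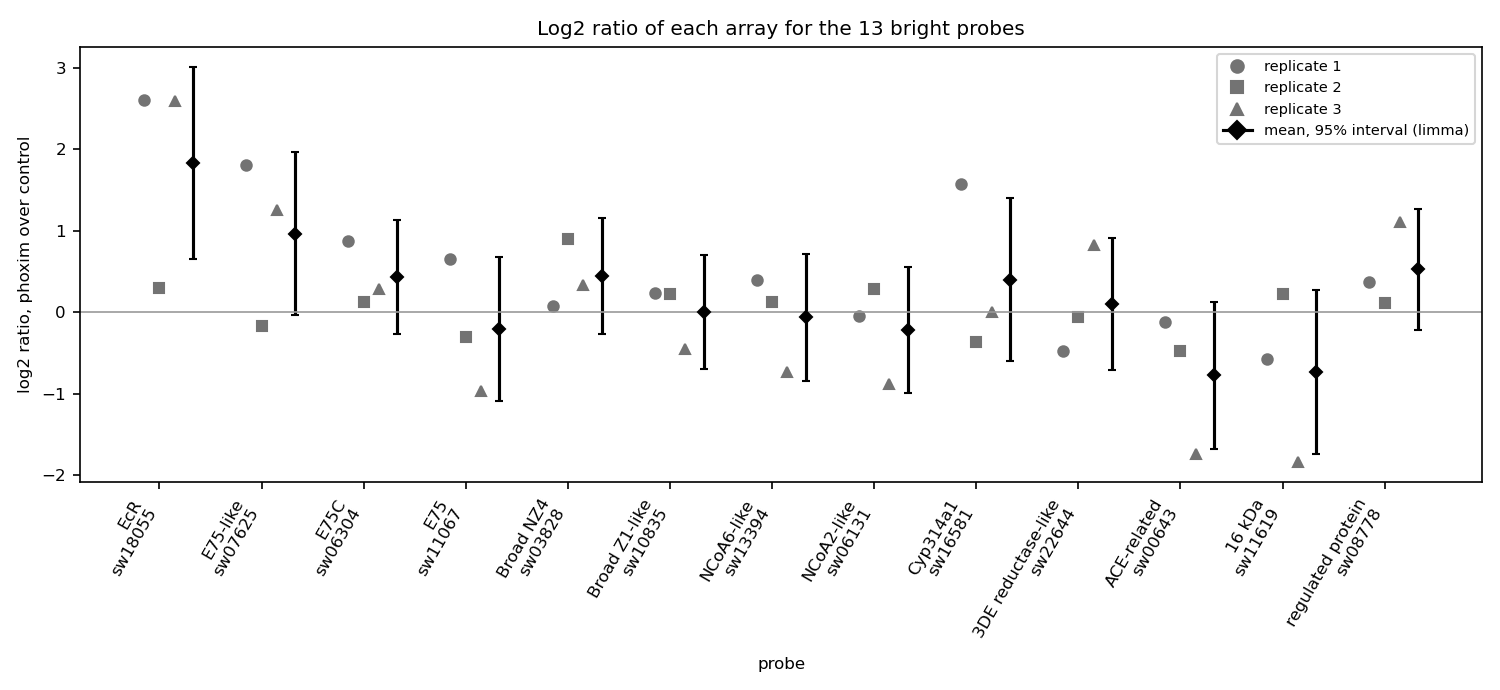
Log2 ratio of phoxim over control (y axis) for each of the 13 tested probes (x axis), with a grey marker for each replicate and a black diamond with bars for the mean and its 95% limma interval. Only the interval of EcR (0.65 to 3.01) leaves out 0, before adjustment over 6154 probes.

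Coregulators and receptor-binding proteins, which link nuclear receptors to chromatin and the transcription machinery, had 6 probes, 2 of them tested, and both of those had intervals on either side of 0. The probe resembling human nuclear receptor coactivator 6 (sw13394) had 672, 883 and 469 in phoxim RNA, against 492, 521 and 809 in control RNA. Its mean log2 ratio was -0.06 ± 0.59 (SD, n = 3), with 0.40, 0.13 and -0.73 on the arrays. The sign turned with median centring (0.22) and without replicate 3 (0.27). The probe resembling coactivator 2 of the honey bee (sw06131), the family of the fly ecdysone coactivator Taiman, had 122, 261 and 75 in phoxim RNA, against 159, 102 and 262 in control RNA. Its mean was -0.22 ± 0.60, and 0.11 without replicate 3. Both overlapped between groups, with adjusted p-values of 0.97 and 0.85 by limma.

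A probe resembling nuclear receptor binding factor 2 (sw01642), a protein described as a comodulator of vertebrate PPAR and RXR, had 440, 293 and 545 in phoxim RNA, against 223, 89 and 412 in control RNA. Its log2 ratios of 0.80, 0.53 and 0.41 were above 0 on every array. It was not tested because neither RNA passed the limit on replicate 2, where the phoxim value of 293 lay below the Cy3 limit of 307.1 and the control value of 89 below the Cy5 limit of 101.0.

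Enzymes of ecdysteroid metabolism formed the largest group, with 26 probes, and only 2 were tested. Ecdysone 20-hydroxylase (Cyp314a1), which makes the active hormone, had 1 tested probe of 4. That probe (sw16581) had 296, 223 and 222 in phoxim RNA, against 58, 171 and 269 in control RNA. Its log2 ratios were 1.57, -0.37 and 0.00, with a mean of 0.40 ± 1.03 (SD, n = 3, adjusted p = 0.76 by limma). The mean rests on replicate 1, without which it was -0.18. The control value of 58 on replicate 1 and the phoxim value of 223 on replicate 2 lay below the Cy3 limits. The sizes of those ratios are therefore not exact. Another probe for this gene (sw01790) had 221, 143 and 60 in phoxim RNA, against 151, 76 and 118 in control RNA, with ratios of 0.49, -0.28 and -0.04. The probe sw00087, with the same description, had 19, 193 and 25 in phoxim RNA, against 110, 123 and 69 in control RNA, with ratios of -0.44, -0.25 and 0.10. Replicate 1 was the highest array for sw01790 and the lowest for sw00087, and neither was tested. The last (sw07495) was below background throughout.

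The 3alpha-reductase of 3-dehydroecdysone, known from a Spodoptera species as an enzyme of ecdysteroid inactivation, was the best match of 8 probes. The tested one (sw22644) had 882, 1127 and 1224 in phoxim RNA, against 1289, 791 and 618 in control RNA, all above background. Its ratios were -0.48, -0.06 and 0.83, with a mean of 0.10 ± 0.67 (adjusted p = 0.95). The sign turned without replicate 3 (-0.27). A second probe (sw22643) had 46, 173 and 34 in phoxim RNA, against 788, 46 and 118 in control RNA. Its control value of 788 on replicate 1 stood apart from its other 5 values, and its ratio there was -2.64. On the other arrays it was 0.22 and -0.32, and the probe was not tested.

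Glucosyltransferases resembling the baculovirus enzyme that inactivates ecdysteroids had 11 probes, 10 of them above background on no array. The exception (sw18651) had 418, 210 and 347 in phoxim RNA, against 252, 35 and 547 in control RNA, and it missed the limit on replicate 2. Ecdysteroid 22-kinase (Eck, sw09690 and sw21588), which phosphorylates stored ecdysteroids, did not exceed 169 in any sample. Ecdysteroid-phosphate phosphatase (sw07393), which frees them again in the egg, did not exceed 45.

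Ecdysteroid-regulated proteins held the brightest probe of the pathway and the 2 lowest means among the 13 tested probes. The ecdysteroid-inducible relative of angiotensin-converting enzyme (LOC692400, sw00643), named after a class of secreted peptidases, had 5277, 2292 and 1890 in phoxim RNA, against 6076, 2354 and 5111 in control RNA. Each phoxim value lay below the control value of its own array, although the groups overlapped. The log2 ratios were -0.12, -0.47 and -1.74, with a mean of -0.77 ± 0.85 (SD, n = 3, adjusted p = 0.51 by limma). Its mean was -0.29 without replicate 3, the array with the largest difference.

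The 16 kDa protein (LOC100101154, sw11619), which the RefSeq table also names ML-2, had 979, 266 and 533 in phoxim RNA, against 1535, 113 and 1901 in control RNA. Its ratios were -0.57, 0.22 and -1.84, so replicate 2, the array with phoxim in Cy3, went the other way. The phoxim value of 266 there lay below the Cy3 limit of 307.1, so the sign on that array is uncertain. The mean was -0.73 ± 1.04 (adjusted p = 0.56), and -0.18 without replicate 3. On both of these probes the ratio was lowest on replicate 3.

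The probe described only as an ecdysteroid regulated protein (sw08778) had 616, 760 and 894 in phoxim RNA, against 461, 450 and 382 in control RNA, all above background and without overlap. Its ratios of 0.37, 0.11 and 1.10 gave a mean of 0.53 ± 0.52 (adjusted p = 0.57). Another probe with that description (sw00376) was below background throughout. The probe resembling the fly ecdysone-inducible gene E1 (sw17987) had 90, 121 and 176 in phoxim RNA, against 109, 0 and 152 in control RNA, and was not tested. The hormone that triggers ecdysis and its receptors, which act in endocrine cells and neurons at the moult, had 4 probes with no intensity above 84.

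Counted by array, 4 of the 13 probes had normalized ratios above 0 on all 3 arrays, namely EcR, E75C, Broad NZ4 and sw08778, where 18.2% of all tested probes did. The angiotensin-converting enzyme relative alone had ratios below 0 on all 3, where 17.1% of all tested probes did. The median ratio of the 13 was 0.37, 0.12 and 0.00 on replicates 1, 2 and 3, beside 0.13, -0.06 and 0.00 for all tested probes.

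**Figure D4:**
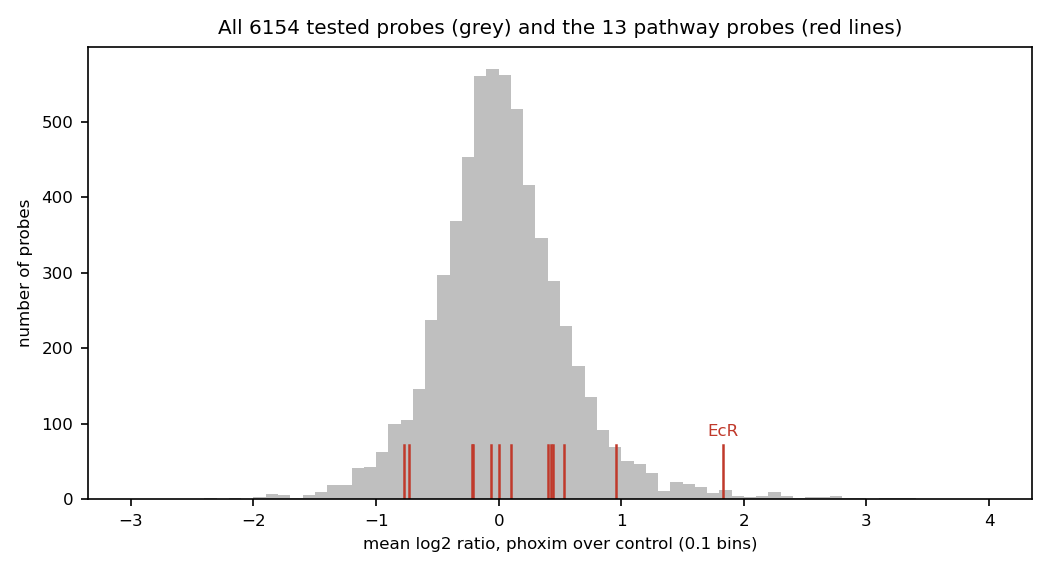
Number of probes (y axis) by mean log2 ratio of phoxim over control (x axis) for all 6154 tested probes (grey bars), with a red line for each of the 13 probes of the pathway. EcR lies at 1.83, a value not exact because control RNA was above background on 1 array, and the other 12 lie between -0.77 and 0.96.

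Genes that act around the receptor were read from 4 lists of descriptions, without the 68 probes, and 0 of their tested probes passed the adjusted test in either direction. Ecdysteroid synthesis and turnover had 12 probes, 4 of them tested, with a median log2 ratio of -0.16. Its probes with the smallest p in each direction were Cyp18a1 (sw01581) and sterol carrier protein x (sw00509). Cyp18a1, which inactivates the hormone in Drosophila, had 1874, 925 and 909 in phoxim RNA, against 276, 701 and 1028 in control RNA, with ratios of 2.45, -0.18 and -0.28. Its mean of 0.67 ± 1.55 rests on replicate 1 (adjusted p = 0.68 by limma). Sterol carrier protein x, a lipid-transfer protein, had ratios of -0.68, -0.29 and -0.40, a mean of -0.46 ± 0.20 and an adjusted p of 0.58.

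Cofactors and chaperones of receptors had 31 probes, 11 tested, with a median of -0.03. Hsp90 (sw01900), a chaperone that helps steroid receptors to fold, had 527, 867 and 1356 in phoxim RNA, against 2884, 378 and 2754 in control RNA. The ratios of -2.24, 0.50 and -1.24 differed in sign with the dye order, and the mean was -0.99 ± 1.38 (adjusted p = 0.52 by limma). A relative of Hsp90 in mitochondria, TRAP1 (sw08767), had 0.21, 0.18 and 0.21, a mean of 0.20 ± 0.02 (adjusted p = 0.82). Peptide hormones upstream had 34 probes, 6 tested, with a median of 0.43. The probes with the smallest p in each direction there both resemble the fly protein torso-like (sw08783, 0.43 ± 0.39, and sw01027, -0.03 ± 0.62). They entered the list by the wording torso. The probe sw01027 was the only tested one of this list with a mean below 0 (adjusted p = 0.99 by limma).

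The juvenile hormone arm, whose hormone holds back metamorphosis, had 45 probes, 12 tested, with a median of 0.12. Juvenile hormone diol kinase (sw04517), an enzyme of juvenile hormone breakdown, had 174, 993 and 1681 in phoxim RNA, against 630, 1416 and 2452 in control RNA. Each phoxim value was below the control value of its array, and the log2 ratios lay between -1.43 and -0.78. The mean was -1.07 ± 0.33 (adjusted p = 0.35 by limma). A probe described as a putative juvenile hormone resistant protein (sw07095) had ratios of 2.18, 0.20 and 0.82, with a mean of 1.07 ± 1.01 (adjusted p = 0.44).

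**Figure D5:**
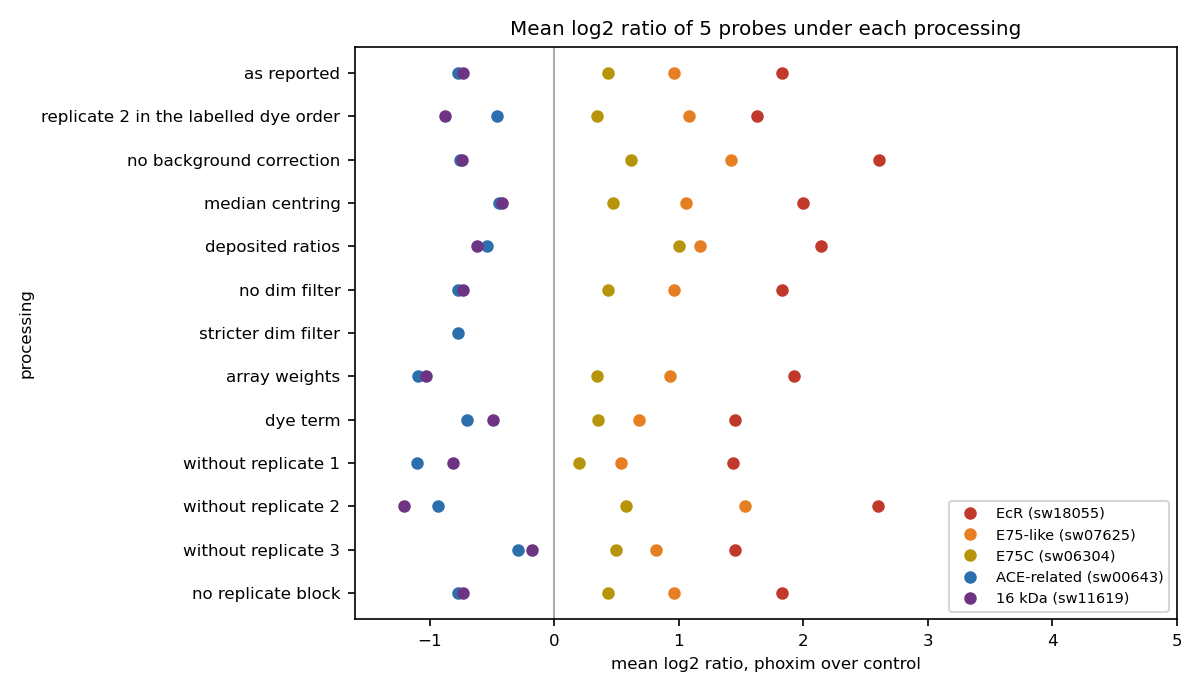
Mean log2 ratio of phoxim over control (x axis) for 5 probes under each processing (y axis). EcR stays between 1.44 and 2.61, the E75-like probe between 0.54 and 1.53, and the ecdysteroid-regulated sw00643 and sw11619 stay below 0. The stricter filter on dim probes keeps only the angiotensin-converting enzyme relative (sw00643) of these 5. The 5 shown kept their sign wherever they were tested, while some tested probes not shown, such as sw10835, changed theirs. The ecdysteroid-regulated probe sw08778, also not shown, stayed above 0 (0.24 to 0.80).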

How the data were processed

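The intensity values of both dyes were used as deposited. How they were scanned and corrected is not given in the sources used here. Some deposited intensities lie below 0, such as -14 for sw18114 in control RNA of replicate 1, so background was taken as already subtracted. Per the file headers, the deposited ratio is phoxim over control. The deposited log2 table equals the log2 of that ratio to within 5e-09, and how the authors normalized it is not stated.

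Intensities were corrected with normexp (offset 50) and loess within each array, with control spots at weight 0, in limma 3.58.1 under R 4.3.3. The mean phoxim over control ratio of each probe was tested two-sided with lmFit and eBayes, and p-values were adjusted over 6154 probes (Benjamini-Hochberg, threshold 0.05). Each array pairs both RNAs and acts as the block. The number of arrays limits the precision. The test was run on simulated ratios, drawn independently for each probe and without a dye effect. That check cannot show how the test behaves with a dye effect or with correlated probes.

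The design had foreseen foreground and background columns. The members, lists and tests were chosen with earlier results of these data known. All tested members are named. Of the other lists, the probe with the smallest p in each direction is named. Of 13 gene IDs among the members, 12 were in the RefSeq table of assembly ASM3026992v2. The files gave no sequence for the 68 probes, so none is shown.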

Additional observations from a re-analysis of the deposited data

How the results depend on the processing

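No probe passed under any of the 12 alternatives, over all probes or among the 68, nor in the 4 lists around the receptor. The lowest adjusted p over all probes was 0.097 with median centring and 0.283 as reported. At an unadjusted p under 0.05, 673 probes stood as reported and between 297 (replicate 2 in the labelled dye order) and 1869 (no filter on dim probes, 23229 tested). The median of the 13 means, 0.10 as reported, was 0.40 with median centring and 0.46 with the deposited ratios. It ranged from -0.11 to 0.24 with 1 array left out. Median centring moved the median of all tested probes to 0.24, and the deposited ratios have 0.09 there. With replicate 2 in the labelled dye order the sign turned for sw03828 (-0.16) and sw10835 (-0.14). It turned for sw11067 (0.09) and sw13394 (0.22) with median centring and for sw10835 (-0.14) with array weights; the cause was not tested. With 1 array left out, the sign turned within the ranges of sw16581 (-0.18 to 0.79), sw10835 (-0.11 to 0.23), sw06131 (-0.46 to 0.11), sw11067 (-0.64 to 0.18), sw22644 (-0.27 to 0.39) and sw13394 (-0.30 to 0.27). EcR (sw18055) ranged from 1.44 to 2.61 with adjusted p-values from 0.18 to 0.88. The fit with no replicate block, in which both RNAs of an array count as unpaired, gave the same mean for EcR (1.83, adjusted p = 0.29) and 0 calls. The stricter filter kept 6 of the 13 probes, and EcR was not among them. Brightness over background limits what could be measured, since 55 of 68 probes could not be compared. Those above background on 2 arrays were lost through the limits of replicate 2 alone.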

Other observations

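The deposited ratio codes marked 1 probe of the 68 as at most 0.5-fold of control on all 3 arrays, sw04453, another match to the 3alpha-reductase of 3-dehydroecdysone; 0.418% of all gene probes had that code on every array. Its intensities were 5, 37 and 2 in phoxim RNA and 62, 0 and 47 in control RNA, below background throughout. Its deposited log2 ratios were -1.99, -1.15 and -2.25, where the ratios fitted here were -0.20, 0.00 and -0.23. On replicate 2 its deposited ratio is below 0 although the phoxim intensity is the higher one. No probe of the 68 was coded as at least 2-fold of control on all 3 arrays, where 1.00% of all gene probes were.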
